A study of Mus musculus with 24 samples.

Results

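The 10 genes described here encode proteins of the neuronal cytoskeleton and of the growing axon: Tubb3, Dcx, Map2, Mapt, Stmn2, Gap43, Nefl, Nefm, Nefh and Ina. They were chosen by symbol, with earlier results of these data known, and each symbol matched 1 Ensembl gene. They are 10 of the 46603 annotated genes in tables of 126602 features, and the remaining 79999 features are loci assembled from the reads. All 10 passed the filter on low counts (a mean of 10 or more after scaling) and are among the 46949 features tested, of which 16253 were annotated genes.

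The RNA came from mouse retinal organoids (MROs), small balls of retina cultured from the mouse embryonic stem cell line E14Tg2a. Whole single MROs were lysed after 20, 22, 25 or 30 days of differentiation (D20, D22, D25 and D30), 6 at each timepoint and 24 in all, and each gave 1 strand-specific library of RNA depleted of ribosomal RNA. All MROs carried the genotype label Control, and water, the solvent, was the one addition that the labels name. The sample titles of D22, D25 and D30 carry Ctrl and those of D20 do not. Any difference behind this cannot be told apart from time in comparisons with D20. By the study's methods for these cultures, MROs were cut in 3 (trisection) and then received the retinoid analog EC23 for some days before the first timepoint. They came from 1 cell line and 1 experiment, so every error given here is the spread between MROs of that experiment, and each value is the sum over all cell types of 1 MRO, in which fewer cells of a type cannot be told apart from less RNA per cell.

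Microtubules are hollow polymers of alpha and beta tubulin that carry transport along axons and dendrites, and microtubule-associated proteins set their stability and spacing. Neurofilaments are the intermediate filaments of neurons, built from light, medium and heavy chains together with alpha-internexin, and they accumulate as axons mature and thicken. In the retina, long axons with abundant neurofilament belong above all to ganglion cells, and horizontal cells also contain neurofilaments, while photoreceptors and bipolar cells have short processes.

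Between 13634846 and 19477108 reads per MRO were counted on a feature, and every D30 library was deeper than every D20 library. Levels are given as normalized CPM, that is, counts scaled to a common library total after correction of the totals by TMM (a trimmed mean of log ratios between libraries). A count of 3 corresponded to between 0.154 and 0.22 CPM, and the lowest value of any member in any MRO, 2.56 normalized CPM of Nefh from 36 reads, lay above that. Counting error was not estimated apart for each member, and relative to the level it is largest for Nefh, with between 36 and 298 reads. The common biological coefficient of variation, over all features tested and not the members alone, was 0.3846. Changes between timepoints are log2 fold changes from edgeR's quasi-likelihood test in 1 fit of all 24 MROs. Their standard error (SE) was derived as the absolute log2 fold change divided by the square root of that test's F statistic. A gene was called changed at a Benjamini-Hochberg adjusted p below 0.01 over all features tested.

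The loci are given in the mouse genome build GRCm38, with the gene bounds of GENCODE M21. Tubb3 spans chr8:123411424-123422015 on the plus strand, Map2 chr1:66175273-66442583 on the plus strand, Mapt chr11:104231390-104332090 on the plus strand and Stmn2 chr3:8509360-8561606 on the plus strand. Dcx lies at chrX:143855842-143933311 and Gap43 at chr16:42248442-42340651, both on the minus strand. Nefl, at chr14:68083863-68089095 on the plus strand, and Nefm, at chr14:68082590-68124846 on the minus strand, share 1108 bp of annotated exon on opposite strands. Nefh lies at chr11:4938754-4948064 on the minus strand and Ina at chr19:47014698-47025327 on the plus strand, where it shares 456 bp of exon with Nt5c2 on the opposite strand. Map2 overlaps the antisense gene Gm10558 over 124 bp of exon. The sources used here do not say whether the counting used the strand, so for these pairs reads of a gene and of its partner may not have been separated, and the values of Nefl, Nefm, Ina and Map2 carry that limit.

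RefSeq promoter sequence was at hand for 4 of the 10 genes, which include the member with the steadiest rise (Map2), the one that varied most (Dcx) and a pair without any called change (Tubb3 and Ina). The 120 bases directly before the most upstream annotated start are shown 5′ to 3′ on the strand of the gene, from build GRCm38.p6, with matches to 3 core promoter motifs in capitals, each searched on both strands. The GC box was searched as GGGCGG, so that in capitals its complement also appears. The CCAAT box was searched by the letters of its name. The TATA box was searched as TATAAA, and no match overlapped another.
Tubb3, chr8:123411304-123411423, plus strand: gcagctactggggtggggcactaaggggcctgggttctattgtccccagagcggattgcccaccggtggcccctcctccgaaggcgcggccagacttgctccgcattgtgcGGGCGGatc
Map2, chr1:66175153-66175272, plus strand: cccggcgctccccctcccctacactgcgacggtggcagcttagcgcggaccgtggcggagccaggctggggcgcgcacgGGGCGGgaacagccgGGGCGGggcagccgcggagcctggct
Ina, chr19:47014561-47014680, plus strand: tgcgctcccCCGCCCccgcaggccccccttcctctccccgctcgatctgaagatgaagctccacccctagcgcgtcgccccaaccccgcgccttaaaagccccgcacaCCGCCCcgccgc
Dcx, chrX:143933312-143933431, minus strand: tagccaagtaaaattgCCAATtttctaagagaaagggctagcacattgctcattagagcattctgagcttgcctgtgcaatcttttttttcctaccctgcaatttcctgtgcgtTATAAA

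The windows of Tubb3, Map2 and Ina were rich in G and C, at 67.5%, 79.2% and 73.3%, against a median of 54.2% over 32851 windows of the same length. They held 1, 2 and 2 GC boxes, a motif found in 26.5% of all windows. The Dcx window was the poorest in G and C of the 4, at 39.2%, and held 1 CCAAT box (in 21.3% of all windows) and 1 TATA box (in 6.3% of all windows). The E-box CANNTG, which neurogenic basic helix-loop-helix factors bind, was in 40.2% of all windows and in none of these 4. These matches are descriptions of the letters only.

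Across the time course 7 of the 10 members changed in the joint test of the 4 timepoints, while 27.2% of all features tested did. The 7 were Dcx, Map2, Mapt, Gap43, Nefl, Nefm and Nefh, and Tubb3, Stmn2 and Ina were not called. Most of the called rises came between D22 and D25, where Dcx, Map2, Mapt and Gap43 were higher, 4 of 10 members against 3.08% of all features, and no member was lower, against 2.19%. Between D25 and D30 only Nefl was called higher, 1 of 10 against 1.76% of all features, and none lower, against 1.75%. From D20 to D30 Map2, Mapt and Nefh rose, 3 of 10 against 13.9% of all features, and none was called lower, against 13.0%. Among the 16253 annotated genes alone the shares were larger. For D25 against D22 they were 7.33% higher and 2.92% lower, and for D30 4.55% and 2.83% against D25 and 25.1% and 16.7% against D20. The joint test called 43.9% of these genes, and the 3 of 10 members called higher at D30 than at D20 were close to the annotated genes' share. The median log2 fold change of the 10 members was 0.74 from D22 to D25, 0.17 from D25 to D30 and 0.87 from D20 to D30, where the medians over all features were −0.05, −0.02 and −0.04.

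Between D20 and D22 no member was called by edgeR's quasi-likelihood test or by DESeq2. The background was 1.62% of features called higher and 0.285% lower. At an unadjusted p below 0.05 there were 4 of the 10 members, with Dcx, Nefl and Nefm lower and Map2 higher, against 17.8% of all features and 24.9% of the annotated genes. The members' median log2 fold change in that step was −0.49, where the median of all features was 0.02. When the fit held only the D20 and D22 MROs, Tubb3, Gap43, Nefl and Nefm passed as lower. That fit called 515 of all 46949 features higher and 322 lower. The D22 MROs enter both the first and the second step, so a low D22 level adds to the fall in one and to the rise in the other.

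**Figure D1:**
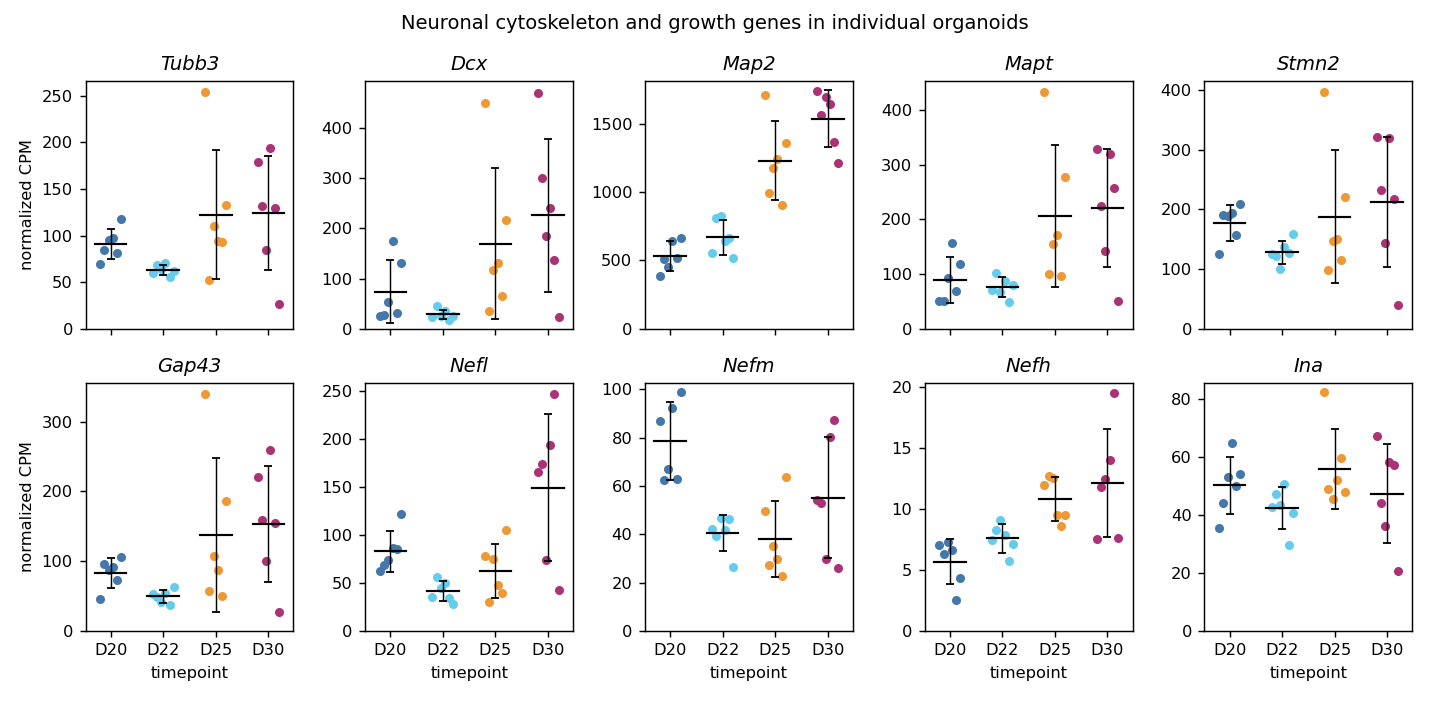
Normalized CPM (vertical axes, each starting at 0) of the 10 genes in each of the 24 MROs by timepoint, where points are single MROs in the order of their replicate numbers, horizontal lines are means and error bars are the SD of 6 MROs. Map2 at D25 and D30 lay above all D22 and D20 values, while for Dcx, Mapt, Gap43, Tubb3 and Stmn2 D25 organoid 1 was the highest of its timepoint and D30 organoid 6 the lowest.

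Tubb3 encodes the beta-III tubulin that is used as a general marker of young neurons. Its levels (lowest, median, highest) were 69.6, 89.8 and 117 normalized CPM at D20, 55.6, 63.2 and 70.7 at D22, 52.2, 102 and 255 at D25, and 26.5, 131 and 194 at D30. The D22 values were closely grouped, with a coefficient of variation of 8.69%, and the values at D25 and D30 spread below and above them. The difference between D25 and D22, 0.95 (SE 0.30) on the log2 scale, did not pass (adjusted p = 0.0344), nor did that between D30 and D20, at 0.45 (SE 0.30, adjusted p = 0.242).

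Dcx encodes doublecortin, a microtubule-binding protein of migrating and newly born neurons. It varied more between MROs of 1 timepoint than any other member at each of the 4 timepoints, with coefficients of variation between 34.4% at D22 and 88.8% at D25. The lowest, median and highest values were 25.4, 42.4 and 174 normalized CPM at D20, 17.9, 24.7 and 44.7 at D22, 35.4, 125 and 449 at D25, and 23.2, 212 and 471 at D30. D20 organoids 4 and 6 stood high at 174 and 131 CPM, while the other 4 lay between 25.4 and 52.4 CPM. At D30 the lowest MRO, organoid 6, was within the range of D22, and the next lowest, organoid 5, had 136 CPM.

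From D22 to D25 Dcx rose 5.97-fold, the largest change of any member in any step (log2 fold change 2.58, SE 0.55, adjusted p = 0.00229), although the lowest D25 value lay within the D22 range. Without D25 organoid 1, the highest, the difference was 2.00 (SE 0.51) and no longer passed (adjusted p = 0.0121). D30 was higher than D20 by 1.61 (SE 0.53), which did not pass (adjusted p = 0.0167), and without D30 organoid 6 it was 1.85 and passed (adjusted p = 0.00275).

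Map2 encodes the microtubule-associated protein of dendrites and cell bodies and was the member whose time course was clearest. From lowest through median to highest it measured 383, 514 and 666 normalized CPM at D20, 514, 653 and 827 at D22, 905, 1209 and 1709 at D25, and 1213, 1605 and 1741 at D30. All 6 MROs at D25 lay above all 12 at D20 and D22, and all 6 at D30 lay above all 6 at D20. The rise from D22 to D25 was 1.84-fold (log2 fold change 0.88, SE 0.14, adjusted p = 1.27e-04), and from D20 to D30 the level rose 2.90-fold (1.54, SE 0.14, adjusted p = 6.22e-10). The first step, at 0.34, and the last, at 0.32, were positive but did not pass (adjusted p = 0.190 and 0.208). With any 1 MRO left out, the D30 against D20 change stayed between 1.47 and 1.61.

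Mapt encodes tau, the microtubule-associated protein of axons. Levels of this gene (lowest, median, highest) were 49.99, 81.5 and 156 normalized CPM at D20, 49.1, 75.4 and 102 at D22, 97.1, 163 and 434 at D25, and 51.4, 241 and 329 at D30. The D22 values lay within the D20 range apart from the lowest, and at D30 organoids 3 and 6, at 141 and 51.4 CPM, still lay within it. Mapt rose 2.70-fold from D22 to D25 (log2 fold change 1.43, SE 0.35, adjusted p = 0.00705) and 2.46-fold from D20 to D30 (1.30, SE 0.35, adjusted p = 0.00389). Without D25 organoid 1 the difference between D25 and D22 was 1.07 and did not pass (adjusted p = 0.0374), and this call was lost in 8 of the 24 omissions of 1 MRO. The call from D20 to D30 was lost in 5 of the 24, without D20 organoids 1, 2 or 5 or D30 organoids 1 or 4, with adjusted p between 0.0105 and 0.0128. From D25 to D30 the level differed by 0.10 (SE 0.34, adjusted p = 0.933).

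Stmn2 encodes stathmin-2, a growth cone protein that binds tubulin dimers and is needed for axon regrowth. Its levels (lowest, median, highest) were 125, 190 and 208 normalized CPM at D20, 100.0, 126 and 159 at D22, 97.8, 149 and 397 at D25, and 39.9, 225 and 322 at D30. The 4 timepoints overlapped in every comparison, and no difference passed, with log2 fold changes of −0.47 (SE 0.31), 0.55 (SE 0.31) and 0.18 (SE 0.31) in the 3 successive steps and of 0.26 (SE 0.31, adjusted p = 0.543) over the whole interval.

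Gap43 encodes growth-associated protein 43, a membrane-bound phosphoprotein of the growth cone. The lowest, median and highest values were 45.6, 90.0 and 106 normalized CPM at D20, 37.2, 50.8 and 62.1 at D22, 49.5, 96.8 and 340 at D25, and 27.5, 157 and 259 at D30. D25 organoid 1 stood far above the other 5, whose highest was 186 CPM. Gap43 rose 2.78-fold from D22 to D25 (log2 fold change 1.47, SE 0.38, adjusted p = 0.00993), close to the threshold. This call was lost in 18 of the 24 omissions of 1 MRO, with an adjusted p between 0.0103 and 0.0669, the last without D25 organoid 1, where the difference was 0.97. D30 and D20 differed by 0.88 (SE 0.37, adjusted p = 0.0627), and without D30 organoid 6 by 1.10, which passed (adjusted p = 0.00734).

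Nefl encodes the light neurofilament chain, without which the other chains do not form filaments in the axon. From lowest through median to highest it measured 61.9, 79.6 and 122 normalized CPM at D20, 28.3, 40.1 and 56.5 at D22, 29.9, 61.5 and 105 at D25, and 42.2, 170 and 248 at D30. All D22 values lay below all D20 values, but the difference of −0.997 (SE 0.30) did not pass (adjusted p = 0.0471). From D25 to D30 Nefl rose 2.39-fold (log2 fold change 1.25, SE 0.30, adjusted p = 0.00697), with 4 D30 MROs above every D25 value and 2, organoids 3 and 6, within the D25 range. That call was lost without any 1 of 8 MROs, namely D25 organoids 2, 3, 4 and 5 and D30 organoids 1, 2, 4 and 5, where the log2 fold change over all single omissions lay between 1.05 and 1.46. D30 was higher than D20 by 0.85 (SE 0.30, adjusted p = 0.0233).

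Nefm encodes the medium chain and had another time course. Levels of this gene (lowest, median, highest) were 62.7, 77.1 and 98.8 normalized CPM at D20, 26.3, 41.8 and 46.9 at D22, 22.8, 32.4 and 63.6 at D25, and 26.1, 53.5 and 87.1 at D30. Every D22 MRO lay below every D20 MRO, with a log2 fold change of −0.96 (SE 0.24, adjusted p = 0.0174). The step from D22 to D25 was −0.09 (SE 0.24) and that from D25 to D30 was 0.53 (SE 0.24, adjusted p = 0.230). Nefm was called in the joint test of all timepoints (adjusted p = 0.00194) but in no single comparison of the 4, and at D30 it was 0.51 lower than at D20 on the log2 scale (SE 0.24, adjusted p = 0.0959).

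Nefh encodes the heavy chain, which is the last of the 3 to appear in maturing axons, and was the least abundant member. Its levels (lowest, median, highest) were 2.56, 6.46 and 7.29 normalized CPM at D20, 5.68, 7.64 and 9.12 at D22, 8.56, 10.7 and 12.7 at D25, and 7.54, 12.1 and 19.5 at D30. Each step was positive without passing, and over the whole interval Nefh rose 2.13-fold (log2 fold change 1.09, SE 0.23, adjusted p = 3.11e-04), with every D30 MRO above every D20 MRO. The lowest D30 value and the highest D20 value were close, at 7.54 and 7.29 CPM.

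Ina encodes alpha-internexin, a filament protein of early neurons that also assembles with the other chains. The lowest, median and highest values were 35.6, 51.4 and 64.7 normalized CPM at D20, 29.5, 42.9 and 50.8 at D22, 45.3, 50.4 and 82.4 at D25, and 20.7, 50.5 and 67.3 at D30. The median was between 42.9 and 51.4 CPM at all 4 timepoints and no comparison passed, with a difference between D30 and D20 of −0.09 (SE 0.19, adjusted p = 0.758).

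**Figure D2:**
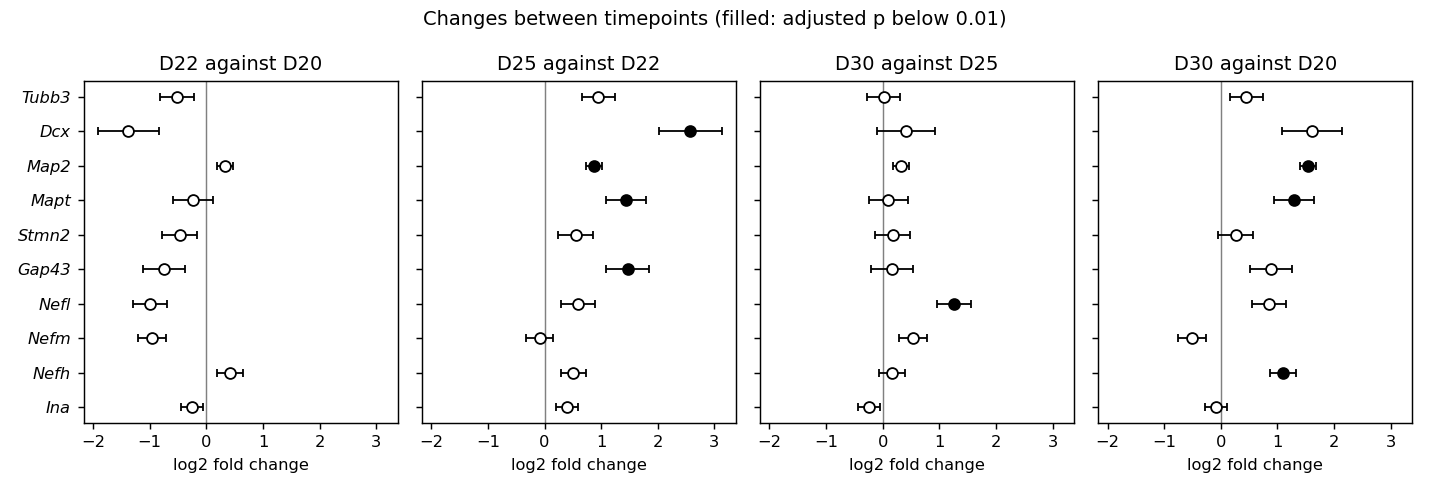
Log2 fold changes with SE (horizontal axis) of the 10 genes in the 3 successive steps and from D20 to D30, with filled points at an adjusted p below 0.01 in edgeR's quasi-likelihood test. Filled points were Dcx, Map2, Mapt and Gap43 from D22 to D25, Nefl from D25 to D30, and Map2, Mapt and Nefh from D20 to D30, and all of them lie above 0.

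Between genes, levels were compared as normalized CPM per kb of annotated exon. At D20 Gap43 (54.7 ± 14.0, SD, n = 6) and Tubb3 (48.6 ± 8.79) led and did not differ beyond their spread, followed by Map2 (32.2 ± 6.62), Stmn2 (31.7 ± 5.47) and Nefl (24.5 ± 6.32), of which Map2 and Stmn2 differed by less than their spread. Ina (15.5 ± 3.04), Nefm (13.6 ± 2.79) and Mapt (11.9 ± 5.55) formed a lower group within each other's spread, below which Dcx (5.83 ± 4.99) and Nefh (1.42 ± 0.465) stood last. At D30 Gap43 (100.9 ± 54.5) and Map2 (93.5 ± 12.6) led, and the order went on with Tubb3 (66.5 ± 33.0), Nefl (44.2 ± 22.8), Stmn2 (37.9 ± 19.3), Mapt (29.3 ± 14.3), Dcx (17.9 ± 12.1), Ina (14.6 ± 5.27), Nefm (9.52 ± 4.34) and Nefh (3.04 ± 1.11). Apart from the step from Nefm to Nefh, each neighbouring pair in the D30 order differed by less than the SD of at least 1 of both genes. Map2 moved from the third place to the second, and Nefm and Ina ended below Mapt and Dcx. Exon lengths cover all annotated transcripts of a gene, so a gene expressed from its shorter transcripts only has a higher level per kb than given here.

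Ratios of counts within a library do not depend on how libraries are scaled, and 6 were compared between D20 and D30 by an exact two-sided permutation test over the 12 MROs, with Benjamini-Hochberg adjustment over the 6. The log2 ratio of Nefm to Nefl went from −0.07 ± 0.33 (SD, n = 6) at D20 and −0.03 ± 0.34 at D22 through −0.69 ± 0.31 at D25 to −1.35 ± 0.36 at D30. It lay between −0.44 and 0.49 at D20 and between −1.71 and −0.69 at D30, so that the groups did not overlap, and fell by 1.28 (exact permutation p = 0.00216, the smallest that 924 splits allow, adjusted p = 0.00649). Ina relative to Nefl was −0.71 ± 0.27 at D20 and −1.53 ± 0.48 at D30, a difference of −0.82 (exact permutation p = 0.00649, adjusted p = 0.0130), with overlapping ranges. Nefh to Nefl differed by 0.44 (adjusted p = 0.522 by the same exact test).

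Of both growth cone genes, Gap43 rose relative to Stmn2. Their log2 ratio averaged −1.12 ± 0.17 at D20 and −1.38 ± 0.20 at D22, then −0.62 ± 0.38 at D25 and −0.49 ± 0.09 at D30. The D20 values lay between −1.45 and −0.97 and the D30 values between −0.54 and −0.31, without overlap, and the difference was 0.63 (exact permutation p = 0.00216, adjusted p = 0.00649). At D30 this ratio was nearly the same in all 6 MROs, although Gap43 itself ranged from 27.5 to 259 normalized CPM. The ratios of Mapt to Map2 and of Dcx to Map2 differed by −0.36 and 0.03 between D30 and D20 (adjusted p = 0.522 and 0.974 by the same exact permutation test).

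**Figure D3:**
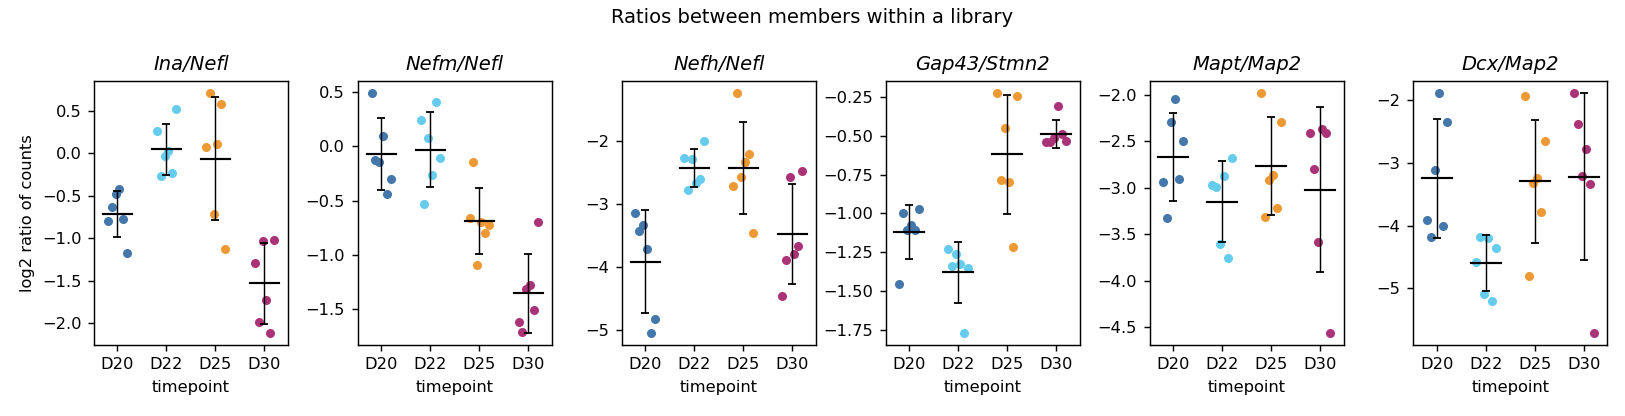
Log2 ratios of the counts of 2 members in the same library (vertical axes, each with its own scale) for the 24 MROs by timepoint, where points are MROs, horizontal lines means and error bars the SD of 6. Nefm relative to Nefl was lower in every D30 MRO than in every D20 MRO, and Gap43 relative to Stmn2 was higher.

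By their median, the members spread more widely between MROs at the late timepoints. Spread was instead lower than at D20 for Map2 at D30 (13.5% against 20.6%), Nefh at D25 (16.6% against 32.7%) and Dcx at D30 (67.6% against 85.5%). Their median coefficient of variation was 23.1% at D20 and 18.4% at D22, then 51.0% at D25 and 49.2% at D30, where the medians over 10830 well counted annotated genes (a mean of 100 normalized counts or more) were 14.1%, 15.4%, 12.9% and 16.5%. D25 organoid 1 was the highest of its timepoint for 7 members and D30 organoid 6 the lowest of its timepoint for 9, all but Nefh. At D20, organoid 1 was lowest for 8 members and organoid 6 highest for 6. An omission chosen after seeing the data left out D25 organoid 1 and D30 organoid 6 together. It changed the calls from D20 to D30 from 3 to 7 members, all higher, and those from D22 to D25 from 4 to 3. Since D30 organoid 6 was the lowest for most members, leaving it out raises their D30 levels by construction. Over all 46949 features that fit called 6481 higher and 5882 lower from D20 to D30, against 6503 and 6089 with all MROs.

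Markers of other cell types also varied between these MROs. The list of cerebral cortex type markers held 5 genes, Tbr1, Neurod6, Neurod2, Emx1 and Emx2. Neurod6 is also expressed by retinal amacrine cells, and whether the other genes came from cortex type cells here was not tested. Of the 5, 2 were higher at D25 than at D22 and 1 at D30 than at D20, against 7.33% and 25.1% of annotated genes. The summed level of the 5 lay between 3.83 and 189 normalized CPM at D20, 1.35 and 12.2 at D22, 6.07 and 258 at D25, and 7.48 and 225 at D30. D25 organoid 1 had the highest sum of its timepoint and D25 organoid 2, lowest for Dcx, Tubb3, Stmn2 and Nefl, the lowest. D30 organoid 6 had the lowest sum of D30 and D20 organoid 6 the highest of D20. At D25 all MROs had the same order in the cortex marker sum as in Dcx, but at D20 and D30 they did not. D30 organoid 5 had the highest sum of D30, at 225 CPM, and the second lowest Dcx, at 136 CPM. It was also the highest of D30 in Nefl, Nefm and Nefh. At D20, organoid 4, the highest in Dcx, had a sum of 35.6 CPM, and organoid 1, lowest for 8 members, had 20.6 CPM, while the lowest sum, 3.83 CPM, was in organoid 2. At D30 the summed markers of Müller glia, of the oligodendrocyte lineage and of retinal progenitors were also highest in organoid 1 and lowest in organoid 6, with 4101 and 1152, 123 and 18.1, and 390 and 208 normalized CPM. Rod and bipolar cell sums were instead lowest in organoid 1, at 5794 and 236 normalized CPM, with 9611 and 348 in organoid 6. Sums of ganglion cell and of amacrine and horizontal cell markers were highest in organoid 3 and lowest in organoid 5. Tbr1 and Emx1 each had 0 counts in at least 1 D22 library. Map2 at D25 lay above all D22 values also in organoid 2, where the cortex markers summed to 6.07 CPM. The part of any of these cells in the levels of the 10 genes was not tested.

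Retinal ganglion cell markers fell over the time course. Of 6 tested ganglion cell genes (Pou4f1, Pou4f2, Isl2, Rbpms, Slc17a6 and Sncg), 5 fell from D20 to D30, all but Slc17a6, with a median log2 fold change of −3.11 over the 6, and Pou4f3, the remaining gene of that list, did not pass the filter. The sum over the 7 genes went from 111 ± 29.4 normalized CPM at D20 (SD, n = 6) and 66.1 ± 18.6 at D22 through 36.2 ± 6.44 at D25 to 24.2 ± 11.7 at D30. None of the 10 members was called lower over that interval, in which Nefm had a log2 fold change of −0.51 and Ina of −0.09. Over the same interval 25.1% of annotated genes were called higher and 16.7% lower. From D20 to D22, when the ganglion cell sum was also lower, the members' median log2 fold change was −0.49. Nefl and Nefm then differed by −0.997 and −0.96, and Map2 and Nefh by 0.34 and 0.42, none of which passed in the fit of all MROs. Of the other lists of cell type markers, rod photoreceptors had 7 of 7 genes higher at D30 than at D20, bipolar cells 6 of 7 higher and 1 lower, Müller glia 5 of 6 higher, the oligodendrocyte lineage 3 of 5 higher and 1 lower, amacrine and horizontal cells 1 of 8 higher and 2 lower, and retinal progenitors 7 of 8 lower.

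**Figure D4:**
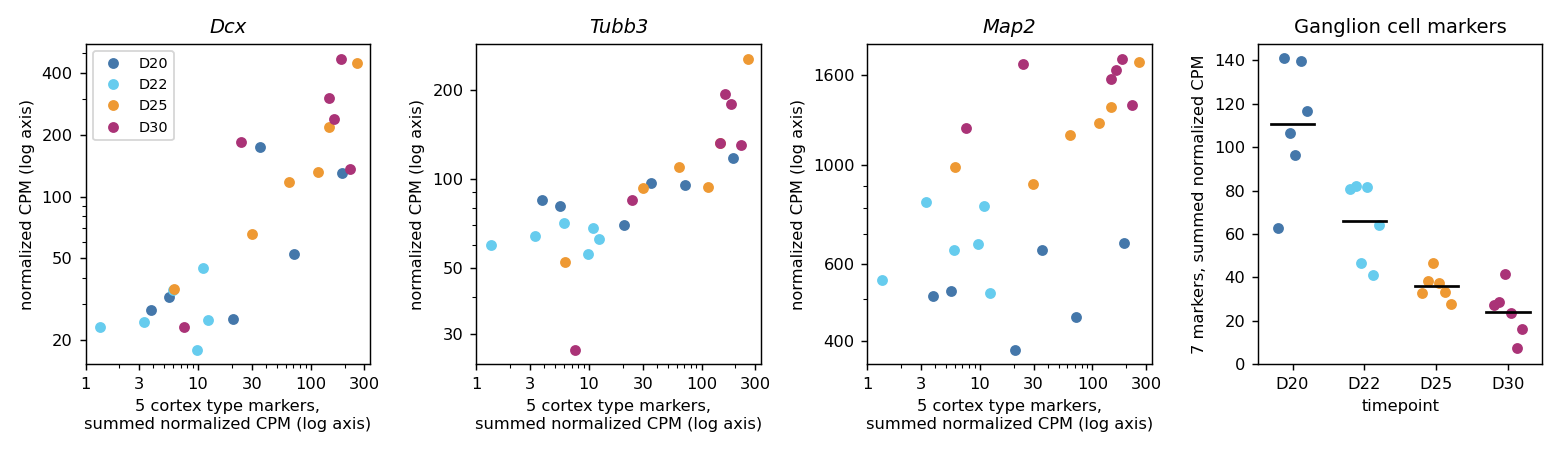
Normalized CPM of Dcx, Tubb3 and Map2 against the summed normalized CPM of 5 cortex type markers (both axes logarithmic), 1 point per MRO, and the summed normalized CPM of 7 ganglion cell markers by timepoint (linear axis from 0, lines are means of 6). The MROs lowest in the cortex markers at D25 and D30, at 6.07 and 7.48 CPM, were also the lowest of their timepoints in Dcx and Tubb3. In Map2 they were the second lowest of D25 and the lowest of D30, at 992 and 1213 CPM, which is above the D22 range.

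The genes whose pattern over the 24 MROs was most like that of each member were found among 10830 annotated genes by the root mean square (RMS) difference of log2 normalized CPM, each gene centred on its own mean. Map2 had the nearest neighbours, Gdap1 at 0.12 and Wdr47 at 0.15. Stmn2 was nearest to Tubb2b (0.17) and Hmgcs1 (0.20), Tubb3 to Hmgcs1 (0.22) and Crmp1 (0.22), and Ina to Map6 (0.22) and Zfp697 (0.22). Nefh was nearest to Camkk1 (0.28) and Foxj2 (0.30), Mapt to Syt16 (0.30) and Myt1l (0.30), and Gap43 to Gng2 (0.32) and Fam131b (0.34). Nefm had Arhgef17 (0.36) and Apba2 (0.38), Nefl had Gm45837 (0.41) and Specc1 (0.44), and Dcx had Shtn1 (0.44) and D430041D05Rik (0.44). Among the members themselves, Tubb3 and Stmn2 were the closest pair at an RMS difference of 0.23, and Dcx and Nefm the farthest at 1.44.

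Beyond the members, 98 further genes of the cytoskeleton in 9 lists were all tested in the same fit. From D20 to D22, 1 rose and 1 fell, against 2.56% and 0.763% of annotated genes. From D22 to D25, 21 rose and 2 fell, against 7.33% and 2.92%. From D25 to D30, 9 rose and none was called lower, against 4.55% and 2.83%. Over the whole interval 46 rose and 10 fell, against 25.1% and 16.7% of annotated genes and 13.9% and 13.0% of all features. The median log2 fold change of the 98 was 0.42. The counts per list below stand beside these same shares. The shared D22 and D25 MROs of neighbouring steps apply here too.

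Among 11 alpha and beta tubulins, 3 rose, near the annotated genes' share, and 1 fell from D20 to D30. Tubb2a rose by 2.04 on the log2 scale (SE 0.31) and Tuba4a by 1.51 (SE 0.17), while Tubb6 fell by 1.26 (SE 0.18). Of 13 microtubule-associated proteins 6 rose and none was called lower, led by Dclk1, a doublecortin-like kinase, at 1.46 (SE 0.30) and Map9 at 1.197 (SE 0.13). Of 3 stathmins only Stmn3 rose, by 1.34 (SE 0.25). Of 11 proteins of microtubule ends 5 rose and 1 fell, where the end-binding genes Mapre3 and Mapre2 rose by 1.82 (SE 0.18) and 1.01 (SE 0.13), and Camsap3, which binds minus ends, fell by 0.82 (SE 0.15).

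Of 13 growth cone proteins 4 were higher and 2 lower, near the annotated genes' shares. Fez1, a kinesin adaptor, rose by 1.69 (SE 0.30) and Gprin1 by 0.89 (SE 0.19), whereas Marcks, an actin-regulating protein kinase C substrate, fell by 0.93 (SE 0.14) and drebrin (Dbn1) by 0.53 (SE 0.16). Of 9 other intermediate filament genes 4 rose and 3 fell. The 2 largest rises were those of Gfap, the filament of glia, at 7.18 (SE 0.93) and of peripherin (Prph) at 1.28 (SE 0.35), and the largest falls those of desmin (Des), at −2.82 (SE 0.62), and nestin (Nes), the filament of neural progenitors, at −0.82 (SE 0.14).

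Of 15 motor genes of axonal transport 9 rose and 1 fell. The dynein intermediate chain Dync1i1 rose by 2.44 (SE 0.63) and the dynactin subunit Dctn1 by 1.35 (SE 0.12), and the kinesin Kif21a fell by 0.61 (SE 0.08). Of 10 spectrins, ankyrins and adducins, which form the membrane skeleton, 6 rose, among them Ank1 by 1.71 (SE 0.33) and Sptbn4 by 1.57 (SE 0.30), and 2 fell, Sptb by 1.15 (SE 0.18) and Ank3 by 0.92 (SE 0.12). Of 13 kinase genes that act on the cytoskeleton 8 rose and none was called lower, led by Camk2a at 4.43 (SE 0.72) and the Cdk5 activator Cdk5r2 at 3.02 (SE 0.27). Cdk5r2 was also the 1 gene of the 98 that rose from D20 to D22, by 1.40, and Tubb6 the 1 that fell, by 0.84.

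**Figure D5:**
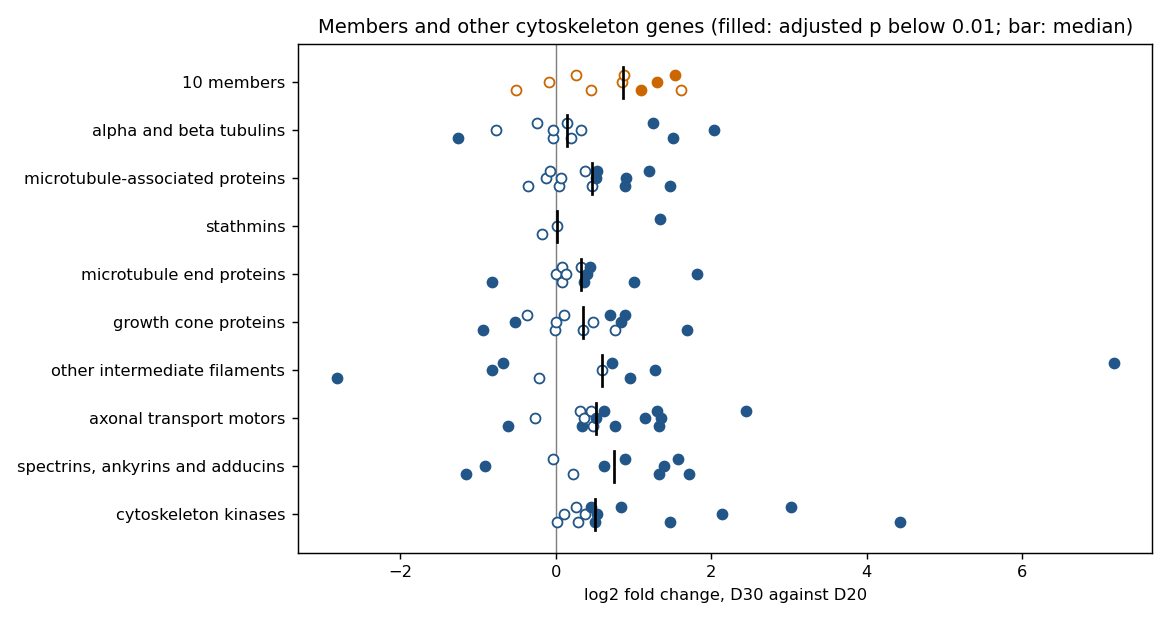
Log2 fold changes from D20 to D30 (horizontal axis) of the 10 members (orange) and of 98 other cytoskeleton genes in 9 lists (blue), with filled points at an adjusted p below 0.01 and a bar at the median of each list. In the lists 46 genes rose and 10 fell, against 25.1% and 16.7% of annotated genes, and Gfap lies farthest to the right at 7.18.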

How the data were processed

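The authors demultiplexed the reads (bcl2fastq 2.20), trimmed them (cutadapt 1.5), aligned them to GRCm38/mm10 with HISAT2, sorted them (SAMtools 1.1), assembled further transcripts (StringTie 1.3.3) and counted reads per feature with HTSeq 0.6.1, with versions per the submitters' processing notes. The deposited values are whole-number counts per feature without normalization, and the 5 summary lines of each table were left out. Groups came from the sample labels.

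Counts of features averaging 10 or more after scaling were normalized by TMM and tested with edgeR 4.0.16 (R 4.3.3) in 1 fit of the 24 MROs without covariates, which kept 46949 features. DESeq2 1.42.0 was an alternative, beside other scalings, filters, sample sets, a replicate block and the omission of each MRO. The ratios used 0.5 added to each count. Figures were drawn with matplotlib 3.10.9.

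All 10 members were described, with the 2 largest rises and the 2 largest falls among called genes of each list from D20 to D30 and the 2 nearest genes of each member among genes averaging 100 or more normalized counts. The 2 genes called from D20 to D22 in the lists were also named. The members and lists were chosen with earlier results of these data known, and 3 genes of the lists are not reported here. In counts simulated for D30 against D20 over 45864 features with a dispersion of 0.15, edgeR recovered 9% of 2-fold and 78% of 4-fold changes, with 0 false calls. The simulation changed 100 features drawn at random by each fold, far fewer than were called in the data. Its shares therefore do not give the power for the members. No library was a duplicate of another within its timepoint, since counts of the closest of 60 pairs differed by a chi-square of 13.3 per degree of freedom.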

Additional observations from a re-analysis of the deposited data

How the results depend on the processing

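Of 1280 log2 fold changes of members under alternative settings, 1194 kept their direction and their side of the threshold, 46 lost the call, 22 gained it and 18 changed sign. The number of members changed in any timepoint stayed between 7 and 9, and Map2 was called under every alternative from D22 to D25 and from D20 to D30. From D20 to D22 the 0 calls became 1 without the filter on low counts, 4 with only the compared timepoints and 1 without both D25 organoid 1 and D30 organoid 6, an omission chosen after seeing the data. From D22 to D25 the 4 became 2 with the replicate number as a block. From D25 to D30 the 1 became 0 with only the compared timepoints and 0 with the replicate block, and 2 without both MROs. From D20 to D30 the 3 became 5 without the filter and 7 without both MROs. The cause was not tested.

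With 1 MRO left out at a time, members changed ranged from 0 to 1 (D20 to D22, 1 without D30 organoid 6), 1 to 5 (D22 to D25, 1 without D25 organoid 1, and 2 without D22 organoids 1, 3, 4, 5 or 6 or D25 organoids 4 or 6), 0 to 1 (D25 to D30) and 2 to 6 (D20 to D30, 6 without D30 organoid 6). Sign changes under these omissions were seen from D25 to D30 for Tubb3 (−0.15 to 0.37), Mapt (−0.050 to 0.46), Gap43 (−0.053 to 0.66) and Nefh (−0.018 to 0.27), from D22 to D25 for Nefm (−0.30 to 0.024), from D20 to D30 for Ina (−0.22 to 0.065) and for the Dcx to Map2 ratio (−0.24 to 0.53), none of which was called. Tubb3 from D25 to D30 was −0.065 among annotated genes only. Without both MROs, Ina was 0.052 from D25 to D30 and 0.065 from D20 to D30. Of 288 counts per list, 259 stayed within 1.5 times and 29 moved.

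The replicate numbers did not pair the MROs. Deviations of same-numbered MROs correlated between −0.09 and 0.26 over 36 pairs, and 7 of 24 libraries were closest to their own number. Under the block Mapt and Gap43 lost their D22 to D25 calls (adjusted p = 0.0151 and 0.0255, edgeR) and Nefl its D25 to D30 call (0.0253). DESeq2 called 1223 features higher and 382 lower from D20 to D22, against 760 and 134 by edgeR, and called as many members in every comparison.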
